A study of Mus musculus with 8 samples.

Results

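The actin genes and the transcription factor that controls them were followed through serum starvation of IMCD3 cells, a mouse kidney line of inner medullary collecting duct origin. The 9 genes were chosen by name from the array's annotation: the 6 actin genes Acta1, Actc1, Acta2, Actg2, Actb and Actg1, the gene of serum response factor, Srf, and those of its cofactors myocardin-related transcription factors A and B, Mkl1 (now Mrtfa) and Mkl2 (now Mrtfb). They are 9 of 27591 genes that carry a name on the array, and 18 probes belong to them. The genes were picked with the change of the same cells in view, so their own values are given below as a description, with no test.

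Starved cells had 48 h in medium without fetal calf serum, a treatment used to make these cells grow cilia. Unstarved cells had 10% serum, were thinned 1:10 on the previous day and had not become confluent, so serum and cell density differ together and cannot be told apart. Both groups are the same unmodified cell line, with 4 samples in each group from 2 replicate cultures hybridised on 2 arrays each, and 500 ng of total RNA went into each labelling. Every array held 1 starved and 1 unstarved sample, and the dye labels place starved RNA in Cy5 throughout replicate 1 and in Cy3 throughout replicate 2. Dye orientation and replicate therefore cannot be told apart.

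Actin is the protein of microfilaments. Vertebrates make striated muscle forms (Acta1 in skeletal, Actc1 in heart muscle), smooth muscle forms (Acta2 in vessels, Actg2 in gut) and cytoplasmic forms (Actb and Actg1, in all cells). Serum response factor binds a sequence called the CArG box. Its MRTF cofactors are held back by free actin monomers and move into the nucleus when monomers are used up, for example after serum, so actin genes are both the product and a part of the control. A second arm, the ternary complex factors (Elk1, Elk3, Elk4), couples the same factor to MAP kinase and to immediate early genes.

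Promoter sequences are shown because the members differ both in their change and in the CArG boxes they carry. RefSeq windows of the 250 bases before the annotated gene start (GRCm38.p6) were at hand for 7 of the 9 genes, not for Actb and Actg2. The box was searched as 2 C, then 6 letters that are each A or T, then 2 G, a pattern that reads the same on both strands, and also with 1 letter off. Capitals mark exact boxes and boxes with 1 letter off, 5′ to 3′ on the strand of the gene.
Acta1 promoter (chr8:123894776-123895025, - strand): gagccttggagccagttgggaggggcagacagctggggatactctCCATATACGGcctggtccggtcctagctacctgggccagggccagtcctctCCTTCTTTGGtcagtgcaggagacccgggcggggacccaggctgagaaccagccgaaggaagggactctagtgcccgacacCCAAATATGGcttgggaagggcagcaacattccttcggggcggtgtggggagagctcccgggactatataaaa
Actc1 promoter (chr2:114052876-114053125, - strand): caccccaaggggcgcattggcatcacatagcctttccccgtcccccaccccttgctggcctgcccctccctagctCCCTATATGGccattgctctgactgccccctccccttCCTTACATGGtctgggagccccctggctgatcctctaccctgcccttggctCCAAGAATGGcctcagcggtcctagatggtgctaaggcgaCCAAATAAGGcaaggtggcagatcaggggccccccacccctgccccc
Acta2 promoter (chr19:34255374-34255623, - strand): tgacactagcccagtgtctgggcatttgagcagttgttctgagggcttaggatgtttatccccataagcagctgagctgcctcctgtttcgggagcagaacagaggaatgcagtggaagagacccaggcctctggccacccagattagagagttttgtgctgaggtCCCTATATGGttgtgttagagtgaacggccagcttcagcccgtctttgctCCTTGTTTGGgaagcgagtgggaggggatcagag
Actg1 promoter (chr11:120348496-120348745, - strand): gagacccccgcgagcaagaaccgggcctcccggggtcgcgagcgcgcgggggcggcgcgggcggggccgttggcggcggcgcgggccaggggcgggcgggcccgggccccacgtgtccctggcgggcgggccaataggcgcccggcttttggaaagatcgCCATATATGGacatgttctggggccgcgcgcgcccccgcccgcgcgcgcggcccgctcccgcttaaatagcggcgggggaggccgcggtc
Srf promoter (chr17:46556163-46556412, - strand): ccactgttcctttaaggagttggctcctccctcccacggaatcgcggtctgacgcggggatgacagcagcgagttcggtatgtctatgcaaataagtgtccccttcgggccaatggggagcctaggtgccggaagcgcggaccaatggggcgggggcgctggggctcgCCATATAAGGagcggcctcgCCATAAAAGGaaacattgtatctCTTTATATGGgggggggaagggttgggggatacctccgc

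Exact boxes were found in Acta1 (CCAAATATGG, 73 to 64 bases before the start), Actc1 (CCAAATAAGG, 47 to 38 bases before it), Actg1 (CCATATATGG, 90 to 81 bases before it) and Srf (CCATATAAGG and CCATAAAAGG). Acta2 had 2 boxes with 1 letter off, CCCTATATGG and CCTTGTTTGG. Mkl1 had 1 such box in 1 of its 2 windows, and none of the 3 Mkl2 windows held a match. An exact box was thus found for 4 of 7 genes (57.1%), against 439 of 27025 genes with a window (1.62%). Counting 1 letter off, it was 6 of 7 genes (85.7%), against 21.1% of all genes. A match is a description of these letters, not evidence of binding.

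**Figure D1:**
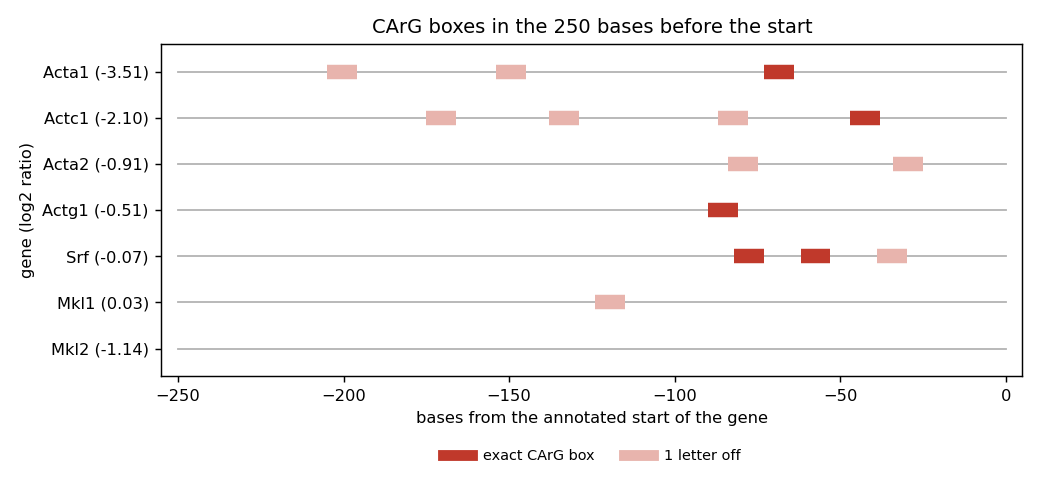
Position of CArG boxes in the 250 bases before the annotated start (horizontal axis, bases) for each gene with a RefSeq window (rows, with its log2 ratio of starved over unstarved cells in brackets; for Mkl1 and Mkl2 the first window). Dark bars are exact boxes and pale bars have 1 letter off; Acta1 and Srf both carry exact boxes while their log2 ratios are -3.51 and -0.07.

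Of the 16078 genes with a probe well above background on all 4 arrays of at least 1 group, 5054 (31.4%) passed limma's test at a Benjamini-Hochberg adjusted p of 0.05, with 2906 (18.1%) higher and 2148 (13.4%) lower in starved cells. The median log2 ratio of all tested genes was 0.01. Of the 9 members, 7 were among the lower ones, a count the choice of members bears on and from which nothing is read. With median centring in place of loess, only 249 genes (1.55%) passed and of the members Acta1 and Actc1. The log2 ratios of all genes correlated at 0.991 within a replicate and at 0.824 to 0.83 across replicates. Errors of members are the SD of the 2 replicate ratios, and a moderated SE, given for some other genes, is limma's, which borrows spread from all genes. Both gene-level and probe values below are log2 ratios of starved over unstarved, and levels are log2 single-channel intensities that compare samples for 1 probe, never 2 probes. A bulk extract cannot tell fewer cells of a type from less RNA per cell.

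With the brightest tested probe standing for each gene, the striated muscle actins had the lowest gene-level ratios of the members. The Acta1 probe read 9.12, 8.38, 8.74 and 8.36 in the starved samples on arrays 1 to 4, against 12.14, 12.24, 12.08 and 12.18 in the unstarved samples. Every starved sample was far below every unstarved one, and the starved samples of replicate 1 were the higher pair. The log2 ratio was -3.51 ± 0.47 (SD, n = 2 replicates), 11.4-fold lower, with -3.18 in replicate 1 and -3.85 in replicate 2. Only 2 of the 16078 tested genes had a lower ratio than Acta1, which ranked 3 from the bottom. The probe is shown because it carries the largest fall of a gene-level value among the members, and it lies at chr8:126778387-126778446 on the minus strand in the array's mm8 build.
Acta1 probe: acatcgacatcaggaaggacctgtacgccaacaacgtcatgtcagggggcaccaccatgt

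Actc1 read 11.16, 10.76, 11.33 and 10.76 in starved samples, against 13.10, 13.04, 13.20 and 13.09 in unstarved samples. The groups did not overlap, and again the starved samples of replicate 2 were lowest. Its log2 ratio was -2.10 ± 0.28 (SD, n = 2 replicates), 4.30-fold lower, and it ranked 34 from the bottom. Its 60-base probe is placed over 924 bases of chromosome 2, so it bridges an intron and reads spliced RNA.

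Markers of muscle cells were measured beside these actins. Of 27 skeletal and cardiac muscle genes, 11 were tested. Their summed linear level was 24680 to 26880 in starved samples, against 71260 to 75540 in unstarved samples. Such a sum is carried mostly by the brightest probes of a list and says little about the dim ones. Of the 11 genes, 5 passed as lower in starved cells (45.5%, against 13.4% of all genes) and 1 as higher (9.09%, against 18.1% of all genes). The lower ones included the atrial myosin light chain gene Myl7 (log2 ratio -3.91, limma adjusted p = 1.01e-11) and the fast troponin C gene Tnnc2 (-2.67, limma adjusted p = 2.66e-10), and the higher one was the cardiac troponin I gene Tnni3 (1.23, limma adjusted p = 1.42e-06). The defining muscle genes Myod1, Myog, Ckm, Des and Actn2 stayed near background in starved and in unstarved samples. Markers of the labelled cell type, the kidney tubule epithelium, were detected for 12 of 12 genes. In starved cells 4 passed as higher (33.3%, against 18.1% of all genes) and 3 as lower (25%, against 13.4% of all genes). The sums were 580900 to 697400 in starved, against 812500 to 874700 in unstarved samples. Bright keratin probes weigh most in them, such as Krt8 with a mean level of 17.18 in starved and 17.81 in unstarved samples. Of 9 fibroblast genes only 3 were detected, and 2 of them passed as lower (66.7%, against 13.4% of all genes). The sums were 569 to 640 in starved, against 960 to 1076 in unstarved samples. The collagen gene Col3a1, the decorin gene Dcn and the receptor genes Pdgfra and Pdgfrb were among the 6 that were not well above background. The part of such cells in the actin values was not tested.

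**Figure D2:**
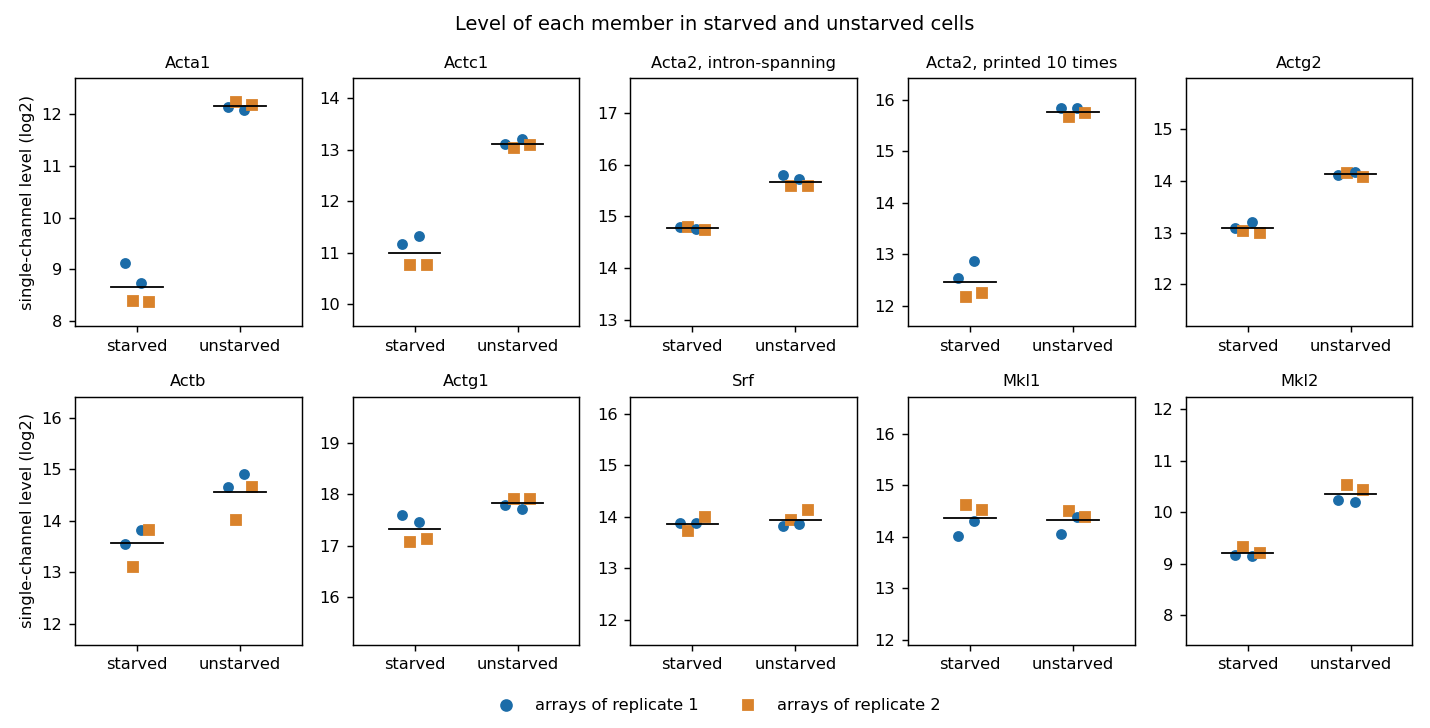
Single-channel level (vertical axis, log2; all panels span the same range) of the brightest tested probe of each member, and of the Acta2 probe printed 10 times, in starved (left) and unstarved (right) cells. Points are samples, circles and squares mark the arrays of replicates 1 and 2, and lines are means of 4 samples; the groups overlap in Srf and Mkl1 and are apart in the other panels.

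Acta2, the vascular smooth muscle actin, had 5 probes, and they did not give 1 value. All lie on the minus strand of chromosome 19 (mm8). The brightest, which stands for the gene here, is placed over 3255 bases and so bridges an intron; it read 14.79, 14.80, 14.75 and 14.74 in starved samples, against 15.81, 15.58, 15.73 and 15.59 in unstarved samples. Its ratio was -0.91 ± 0.13 (SD, n = 2 replicates), 1.88-fold lower, and the groups were apart. The probe printed 10 times on each array lies further 3′ and read 12.54, 12.18, 12.87 and 12.25 in starved, against 15.84, 15.66, 15.83 and 15.74 in unstarved samples. Its ratio was -3.31 ± 0.25 (SD, n = 2 replicates), 9.91-fold lower. The SD between its spots within 1 array was 0.04 to 0.06, and it was lower than the bridging probe on each of the 4 arrays, by log2 differences of -1.98 to -2.69. With the mean of all tested probes the log2 ratio of Acta2 was -2.39, so its place among the members rests on the choice of probe. That mean includes probes, described below, that were not well above background in any starved sample.

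Both probes are shown because they are assigned to the same gene and differ by that much; of the second, which ends at chr19:34307567, the first 30 of its 60 bases are given.
Acta2 intron-bridging probe: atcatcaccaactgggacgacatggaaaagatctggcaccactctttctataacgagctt
Acta2 probe printed 10 times, first part: gttttgtggatcagcgcctccagttccttt
Another Acta2 probe (chr19:34307204-34307263) was well above background in 0 of 4 starved samples, at 6.60 to 7.20, and in all 4 unstarved samples, at 11.57 to 12.16. For it only a bound can be given, at least 29.6-fold lower in starved cells. A bound of this kind sets the mean of the detected group against, per array, the higher of the dim probe's signal and the lowest signal among probes well above background. The probe nearest the 3′ end, which comes from a different transcript record, was well above background in 0 of 4 starved and in 4 of 4 unstarved samples and was at least 1.28-fold lower. The most 5′ probe was not well above background in any sample. Actin coding sequences are close to each other, and how far each probe takes up RNA of another actin was not tested.

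**Figure D3:**
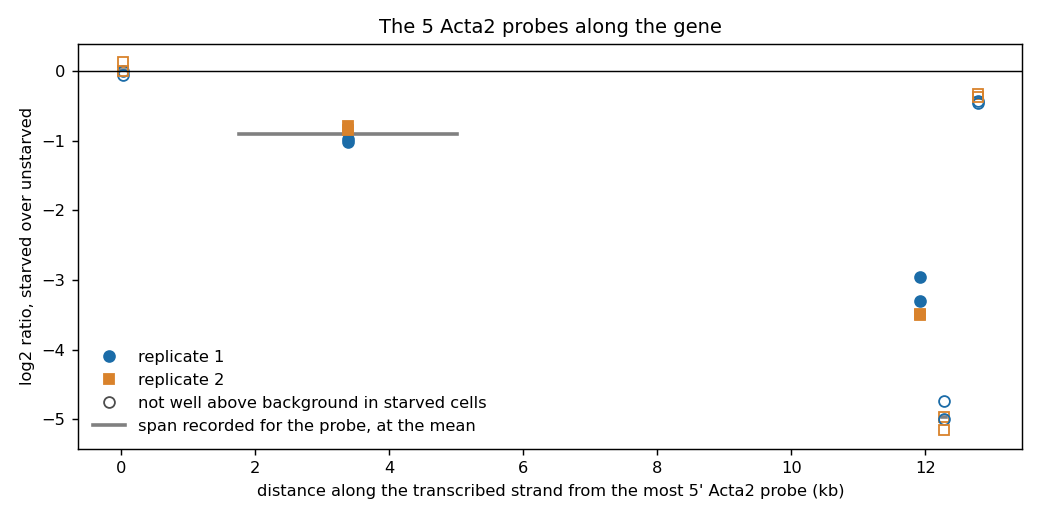
Log2 ratio of starved over unstarved cells (vertical axis) for the 5 Acta2 probes against distance along the transcribed strand from the most 5′ probe (horizontal axis, kb). Points are the 4 hybridisations, open where no starved sample was well above background, and grey bars show the recorded span; the probe printed 10 times sits near -3.31 and the intron-bridging probe near -0.91.

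Actg2, the enteric smooth muscle actin, has 1 probe, placed over 327 bases of chromosome 6. It read 13.10, 13.03, 13.20 and 13.00 in starved samples, against 14.11, 14.15, 14.18 and 14.08 in unstarved samples. The groups were apart, and both replicates gave nearly the same ratio, -0.99 and -1.10. The mean was -1.05 ± 0.08 (SD, n = 2 replicates), 2.07-fold lower. Of 9 smooth muscle markers, 4 were tested and 3 passed as lower (75%, against 13.4% of all genes). Among them was the calponin gene Cnn1 (-1.49, limma adjusted p = 1.85e-07). The summed level of the list was 36580 to 47110 in starved, against 32360 to 45690 in unstarved samples. Cnn1 adds little to that sum, with a mean log2 level of 7.84 in starved and 9.32 in unstarved samples, so the sum does not show its fall. The smooth muscle myosin gene Myh11, the cofactor gene Myocd and Des were not well above background. The part of smooth muscle cells in the Acta2 and Actg2 values was not tested.

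The cytoplasmic actins make up the filaments of all cells. Actb read 13.56, 13.10, 13.81 and 13.83 in starved samples, against 14.66, 14.01, 14.90 and 14.64 in unstarved samples. The highest starved sample was just below the lowest unstarved one, and array 2 was the lowest in both groups. The log2 ratio was -0.98 ± 0.16 (SD, n = 2 replicates), 1.97-fold lower. This brightest Actb probe is recorded on the plus strand of chromosome X (chrX:147774990-147775049, mm8), away from the other Actb probe on chromosome 5 (chr5:143168706-143168765, minus strand). The chromosome 5 probe, printed 10 times, gave -1.03 ± 0.26 (SD, n = 2 replicates), 2.04-fold lower, with an SD between spots of 0.02 to 0.03. Both probes differed between replicates in the same way, with -1.09 and -1.21 in replicate 1, against -0.86 and -0.85 in replicate 2.

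Actg1 is the other cytoplasmic form. Its brightest probe read 17.60, 17.07, 17.46 and 17.13 in starved samples, against 17.80, 17.90, 17.70 and 17.90 in unstarved samples. The groups were apart, but the ratio was -0.22 in replicate 1 and -0.80 in replicate 2, with a mean of -0.51 ± 0.41 (SD, n = 2 replicates). The other Actg1 probe gave a like mean, -0.46 ± 0.21 (SD, n = 2 replicates), with the opposite order: -0.61 in replicate 1 and -0.32 in replicate 2. Between the probes the log2 difference was 0.32 to 0.46 on the arrays of replicate 1 and -0.49 to -0.48 on those of replicate 2. With median centring the gene-level ratio was -0.96. Actg1 was then no longer among the genes that passed, a call that the choice of members bears on.

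**Figure D4:**
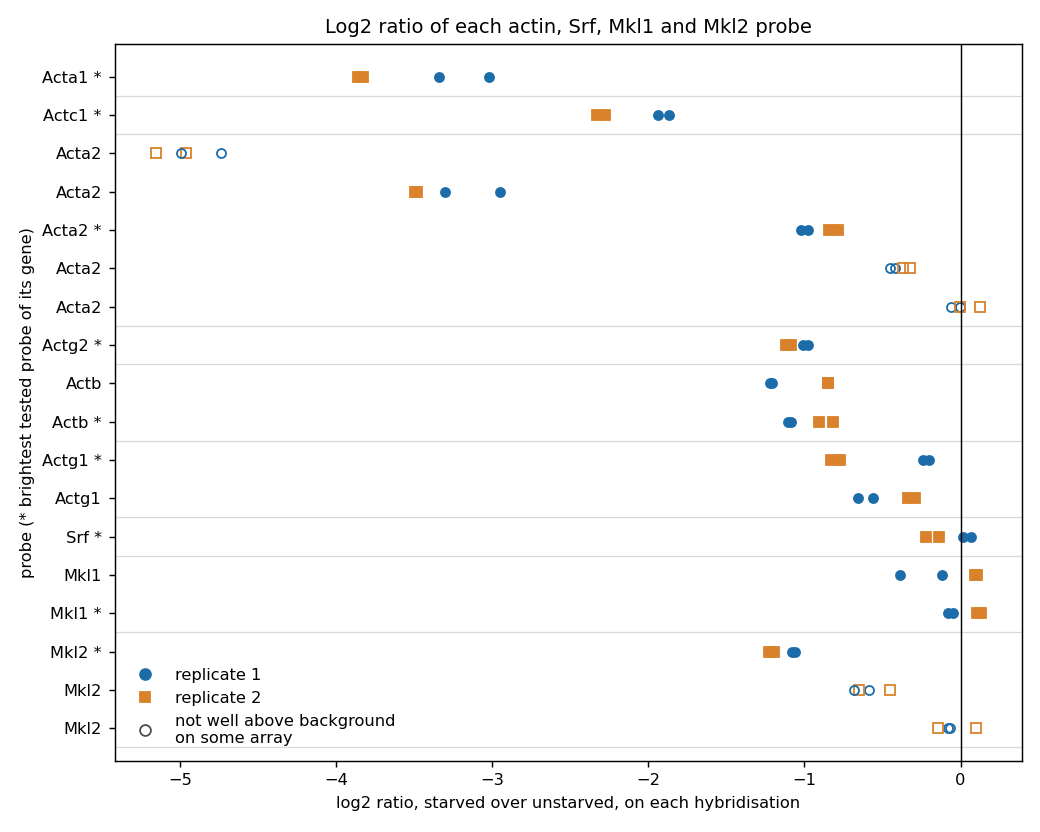
Log2 ratio of starved over unstarved cells (horizontal axis) on each hybridisation for all 18 probes of the members (rows; a star marks the brightest tested probe of the gene). Circles and squares are the arrays of replicates 1 and 2 and open symbols are probes not well above background on some array. Of the 12 actin probes, 11 lie below 0 on all 4 arrays, and the share of all probes that do so was not counted.

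In order of their gene-level ratios, each from the brightest tested probe, Acta1 stood below Actc1, and Actc1 below the others, in both replicates. The Acta2 probe printed 10 times gave -3.13 in replicate 1 and -3.49 in replicate 2, below Actc1 in both. The place of Acta2 in this order therefore rests on the choice of probe. Mkl2, Actg2, Actb and Acta2 followed between -1.14 and -0.91 and their replicate values interleaved, so their order is not settled. Actg1, Srf and Mkl1 came last. Of the 12 actin probes, 11 were tested and the same 11 had starved and unstarved samples apart, with the starved ones lower. The share of all tested probes with groups apart was not counted, so nothing is read from that number.

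Srf, the factor itself, read 13.88, 13.72, 13.88 and 13.99 in starved samples, against 13.82, 13.94, 13.86 and 14.13 in unstarved samples. Its only probe, of 60 bases, is recorded over just 8 bases of chromosome 17, so the record does not place the whole probe. How well it reads Srf RNA was not tested. The groups overlapped, and the log2 ratio was -0.07 ± 0.16 (SD, n = 2 replicates), with 0.04 in replicate 1 and -0.18 in replicate 2. Mkl1, the cofactor MRTF-A, read 14.01, 14.61, 14.31 and 14.52 in starved samples, against 14.06, 14.51, 14.39 and 14.38 in unstarved samples. Its groups overlapped too, with a ratio of 0.03 ± 0.13 (SD, n = 2 replicates) from this probe and -0.08 ± 0.25 from the other, so its sign is not settled.

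Mkl2, the cofactor MRTF-B, had its groups apart. Its brightest probe carries the older array name Gt4-1 and was joined to the gene through its transcript record. It read 9.17, 9.33, 9.15 and 9.21 in starved samples, against 10.25, 10.52, 10.20 and 10.43 in unstarved samples. The ratio was -1.14 ± 0.10 (SD, n = 2 replicates), 2.20-fold lower. A dimmer probe under the same array name gave -0.59 ± 0.06 (SD, n = 2 replicates) and was well above background in 3 of 4 starved samples. The probe that bears the name Mkl2 on the array comes from a different transcript record and lies further 3′ on chromosome 16 (plus strand, mm8). It was well above background in 0 of 4 starved samples and in 1 of 4 unstarved samples, so it gives no reading. The fall was therefore seen only at the probes named Gt4-1.

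Of 24 partner factors and regulators of serum response factor, 18 were tested, 5 passed as lower in starved cells (27.8%, against 13.4% of all genes) and 4 as higher (22.2%, against 18.1% of all genes). The median log2 ratio was -0.02, against 0.01 for all genes. The lower ones were led by Mical2, whose product oxidises nuclear actin (log2 ratio -1.23 ± 0.12 (moderated SE), limma adjusted p = 1.33e-06), and the ternary complex factor Elk3 (-0.98 ± 0.12 (moderated SE), limma adjusted p = 1.64e-05). The cofilin kinase gene Limk1 (-0.57, limma adjusted p = 0.00266) and the LIM protein gene Fhl2 (-0.45, limma adjusted p = 0.0148) followed. Higher were the ternary complex factor Elk4 (0.53, limma adjusted p = 0.00334), the actin-binding phosphatase regulators Phactr2 (0.51, limma adjusted p = 0.00485) and Phactr4 (0.38, limma adjusted p = 0.0267), and the formin gene Diaph2 (0.51, limma adjusted p = 0.00459). The other ternary complex factor gene, Elk1, and Myocd were not well above background. None of these 18 genes passed with median centring.

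The cytoskeletal targets of the factor, mainly genes of filament and contraction proteins, were mostly lower. Of 33 tested genes of the list, 23 passed as lower in starved cells (69.7%, against 13.4% of all genes). Only 1 passed as higher (3.03%, against 18.1% of all genes), and the median was -0.46. Myl9, the regulatory light chain of non-muscle and smooth muscle myosin, read 8.91, 9.03, 8.87 and 8.99 in starved samples, against 12.19, 12.30, 12.12 and 12.30 in unstarved samples, a log2 ratio of -3.28 ± 0.12 (moderated SE, limma adjusted p = 3.71e-11). Tagln, the gene of the actin-bundling protein transgelin, had -2.62 (limma adjusted p = 4.08e-10) and Cnn1 had the value given above. Tpm2, a tropomyosin gene, was well above background in 0 of 4 starved and in 4 of 4 unstarved samples, and was at least 3.21-fold lower (limma adjusted p = 3.83e-08). Mylk, the kinase that phosphorylates myosin light chains, was the exception: it read 12.83, 13.11, 12.89 and 13.06 in starved, against 11.50, 11.46, 11.53 and 11.41 in unstarved samples, 2.82-fold higher (limma adjusted p = 2.16e-07). With median centring 5 of the 33 passed as lower, among them those 4 named genes. The median was then -0.83, against -0.08 for all genes in that setting. This list and the actins were put together with earlier results of these cells known, so its direction is no independent evidence.

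The immediate early targets went the other way. Of 12 tested genes, 10 passed as higher in starved cells (83.3%, against 18.1% of all genes). Only Ier5 passed as lower (8.33%, against 13.4% of all genes), at -0.48 (limma adjusted p = 0.00727). The median of the list was 1.19. This list too was put together with earlier results of these cells known, so its direction is no independent evidence. The zinc finger gene Egr2 read 12.55, 12.46, 12.47 and 12.52 in starved samples, against 9.42, 9.60, 9.36 and 9.63 in unstarved samples, 7.98-fold higher (limma adjusted p = 1.17e-10). The AP-1 gene Fos followed with 14.27, 13.84, 14.15 and 13.83 in starved, against 11.63, 12.07, 11.52 and 12.06 in unstarved samples, 4.61-fold higher (limma adjusted p = 4.13e-08). The RNA decay factor gene Zfp36 (1.45, limma adjusted p = 1.83e-07) and Egr1 (1.44, limma adjusted p = 3.66e-07) rose as well. No sample of one group reached the other in Egr2 or Fos, and with median centring those were the 2 genes of the list that passed.

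**Figure D5:**
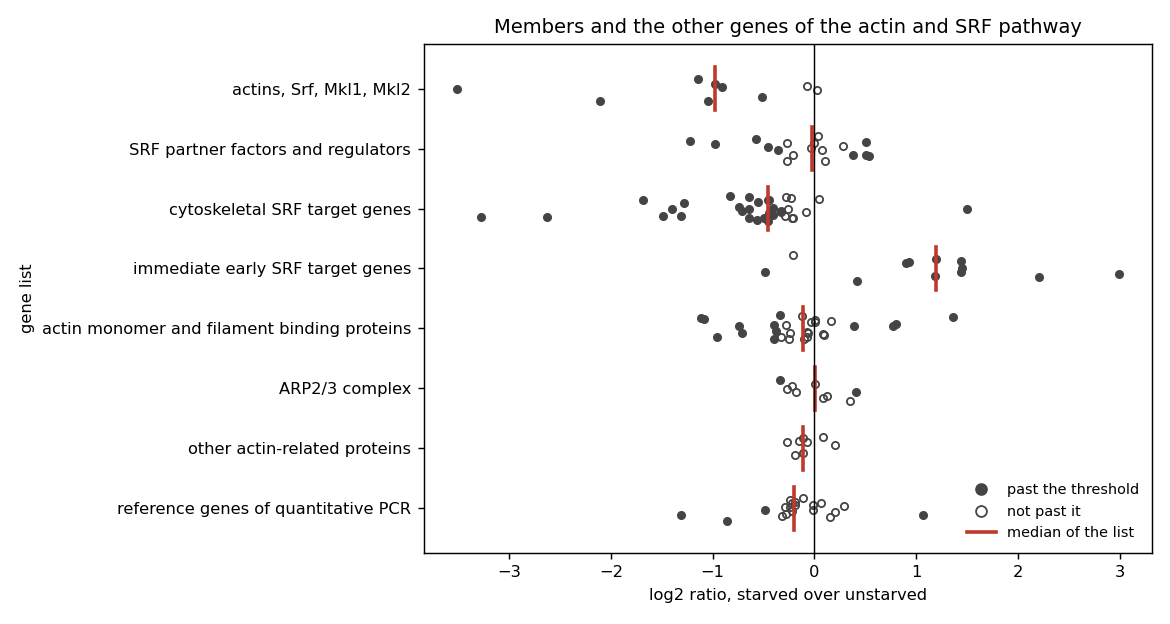
Log2 ratio of starved over unstarved cells (horizontal axis) of the 9 members and of each tested gene in the lists around them (rows). Filled points passed the limma threshold, open points did not and red bars are medians. For the members the filling is a description, because their own values bore on their choice. The cytoskeletal targets have a median of -0.46 and the immediate early targets one of 1.19.

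Of 28 tested genes whose proteins bind actin monomers or filaments, 9 passed as lower in starved cells (32.1%, against 13.4% of all genes) and 4 as higher (14.3%, below the 18.1% of all genes), with a median of -0.11. The monomer-sequestering thymosins were lower, Tmsb4x at -1.12 (limma adjusted p = 4.00e-06) and Tmsb10 at -0.74 (limma adjusted p = 0.000449). The membrane linker gene Msn (-1.08, limma adjusted p = 8.40e-06) and the bundling protein gene Lcp1 (-0.96, limma adjusted p = 2.77e-05) were lower too, Lcp1 being well above background in 1 of 4 starved samples. The gelsolin family genes Gsn, Scin and Capg were higher, Gsn at 1.37 (limma adjusted p = 3.61e-07), Scin at 0.78 (limma adjusted p = 0.000151) and Capg at 0.39 (limma adjusted p = 0.0227), as was the profilin gene Pfn2 at 0.81 (limma adjusted p = 0.000111). The severing protein genes Dstn (-0.71, limma adjusted p = 0.000634) and Cfl1 (-0.40, limma adjusted p = 0.0252) and the capping protein gene Capza1 (-0.38, limma adjusted p = 0.0303) were among the lower ones. With median centring Tmsb4x alone of these 28 passed.

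The filament-branching ARP2/3 complex had 1 gene higher, Arpc1b (0.41, limma adjusted p = 0.0212), and 1 lower, Arpc5 (-0.33, limma adjusted p = 0.0489), of 9 tested (11.1% each way, against 18.1% higher and 13.4% lower of all genes). Its median was 0.01, and -0.34 with median centring (against -0.08 for all genes), under which the Arpc1b log2 ratio was -0.0092. Of 8 tested other actin-related proteins, 0 passed in limma at the adjusted threshold and 1 had an unadjusted p under 0.05.

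Actb is often used to scale quantitative PCR, and 20 genes used in that way were measured beside it. Of these, 3 passed as lower in starved cells (15%, against 13.4% of all genes), and the median was -0.21. The tubulin gene Tuba1a (-1.31, limma adjusted p = 5.81e-07), the transferrin receptor gene Tfrc (-0.86, limma adjusted p = 6.30e-05) and Gusb (-0.48, limma adjusted p = 0.00719) were lower. Gapdh had -0.24 and did not pass (limma adjusted p = 0.153). The Actb value of -0.98, from the probe recorded on chromosome X, lies below those of these genes other than Tuba1a. So does the -1.03 of the Actb probe on chromosome 5.

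The genes whose log2 ratios on the 4 hybridisations lay nearest to a member, by Euclidean distance, were looked up for the members that changed by at least 1 log2 unit. Nearest to Acta1 were Prnd (distance 0.396), Myl9 (0.83), Myl7 (0.89), Ppbp (0.963) and Ptpn22 (1.16), with mean ratios of -2.99 to -3.91. For Actc1 they were Il24 (0.108), Fcmr (0.134), Cyp26b1 (0.137), Gsta2 (0.153) and Sdcbp2 (0.159), all between -2.03 and -2.14. The neighbours of Acta1 are more distant than those of Actc1. For Actg2 they were Selenoh (0.0346), Ecscr (0.0625), Abhd2 (0.0709), Dusp14 (0.0831) and Ddn (0.084). For Mkl2 the named ones were Ephx2 (0.0544), Heg1 (0.06) and the thymosin gene Tmsb4x (0.0725), beside 2 probes whose array names match no current gene. All arrays share 1 slide, and nearness over 4 hybridisations of 2 replicates is a description.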

How the data were processed

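Agilent 2-colour arrays (60-base probes, build field mm8) measured 4 hybridisations of starved with unstarved cells on 1 slide and in 1 scan, per the file headers. Each hybridisation was deposited as 2 identical copies, 1 per dye, and was read once. The deposited intensity values, mean spot signal and local background, were written by the scanner's software, Agilent Feature Extraction 9.5.3.1 per the submitters' processing notes, with no background subtraction or dye normalization; how the deposited intensity table was scaled is not stated there, and its lowest value is 15.

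Signals were corrected with normexp (offset 50) and loess-normalized within arrays in limma 3.58.1 (R 4.3.3), with controls and 583 flagged spots at weight 0; 0 spots were saturated. Levels are the channels after Aquantile. Spots were averaged, and each gene is its brightest tested probe. Arrays of a replicate were averaged before lmFit and eBayes on 2 replicates (adjusted p of 0.05). The replicates are separate cultures per the series text, which also describes a dye swap within each pair; the dye labels put the swap between replicates and were followed. After splitting the channels, samples that share a number (and carry opposite dyes) had deviations that correlated at -0.297, so the pairing rests on the shared arrays. The number of replicates limits precision.

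The members and gene lists were chosen with earlier results of these data known. Named genes are all members, up to 4 largest rises and falls that passed in each list, the defining markers and the 5 nearest genes of each member that changed by at least 1. Myl7, Tnnc2, Tnni3, Dstn, Cfl1 and Capza1 were named after their values were seen. Some items that the rule names are not reported here. Tested on simulated data, the fit was checked for known changes. The alternatives were other normalizations, background corrections, filters, probe summaries, pairings and left-out arrays.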

Additional observations from a re-analysis of the deposited data

Results flagged for a closer look

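Among the 36 sets of 4 samples (18 probes in starved and in unstarved cells), 2 had 1 sample far from the other 3. Chance flags about 1 in 20 sets of 4 independent values. The 4 samples here are 2 cultures on 2 arrays each, so that rate does not strictly apply. For the dimmer Mkl1 probe the unstarved sample on array 3 read 8.46, against 8.17 to 8.20 in the other unstarved samples. For the most 5′ Acta2 probe, which was not well above background in any sample, the unstarved sample on array 1 read 6.60, against 6.32 to 6.34 in the others.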

How the results depend on the processing

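The 5054 genes that passed became 249 with median centring in place of loess, 14295 and 14102 with the arrays paired across the replicates, and 14208 with a dye term over the 4 arrays; those last 3 fits leave the difference between replicates out of the residual. The 4 arrays with a replicate block as a random effect gave 5369 genes, and separate channels with no replicate block 5862. Leaving out each array in turn gave 4967 to 5519, and leaving out a replicate leaves no residual and hence no test. The Arpc1b log2 ratio turned to -0.0092 with median centring. All alternatives kept the ratios of the 6 actins and Mkl2 below 0: Acta1 was -3.97 to -3.51, Actc1 -2.24 to -2.10 and Actg1 -0.96 to -0.44 outside the left-out arrays and replicates, while Acta2 ranged from -2.39 to -0.91 through the choice of probes. Srf was above 0 in 1 of 18 alternatives, and Mkl1 below 0 in 4 of 18. With 2 replicates, each in 1 dye orientation, dye bias cannot be told apart from replicate differences. Taken on its own, the Acta2 probe printed 10 times, examined this way after seeing the data, gave -3.48 with median centring and -3.41 with the scanner's processed signals.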
